A study of Homo sapiens with 3 samples.

Results

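The genes described here were 8 transcription factors of heart chamber and conduction patterning, IRX3, IRX4, HEY1, HEY2, TBX2, TBX3, NR2F1 and NR2F2. They were chosen by name, and all 8 were among the 32738 genes listed in the count table. Chambered cardiac organoids (CCOs) were grown from H7, a human embryonic stem cell line, by monolayer differentiation with CHIR99021, a Wnt pathway activator, and then IWP-2, a Wnt inhibitor. The cells were then aggregated in Matrigel, and the CCOs were kept in cardio-sphere growth medium and later in RPMI with B27. CCOs at D8, D14 and D21 were dissociated, and 1 droplet single-cell RNA library was made for each day from the same line and protocol. D8 and D14 shared the growth medium, while after D14 the CCOs were moved to a spinner flask and the later medium, so D21 differs from D14 in age, vessel and medium together. With 1 library per day and 1 cell line, a difference between days cannot be told apart from a difference between libraries, and no test between days was made.

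In the heart, these factors set the identity of each part of the muscle. IRX4 and the Notch-responsive repressor HEY2 mark ventricular muscle, and HEY1, the paralog of HEY2, marks atrial muscle. IRX3 acts in trabeculae and in the fast conduction system. TBX2 and TBX3 are repressors that hold back the working chamber programme in the atrioventricular canal and the nodes, and NR2F1 and NR2F2, the COUP-TF nuclear receptors, sustain atrial identity. HEY1, HEY2 and NR2F2 also act in vessels, where HEY factors belong to arterial and NR2F2 to venous endothelium.

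Unique molecular identifiers (UMIs) count captured RNA molecules, and cells were kept where they had over 2000 but under 7500 genes detected and less than 10% of UMIs from mitochondrial genes. The 3 libraries, from D8 to D21, kept 2657, 3585 and 1946 cells, and their median depths were 15316, 12282 and 14106 UMIs. The libraries shared 25 (D8 and D14), 52 (D8 and D21) and 59 (D14 and D21) barcodes, and none was shared by all 3 days. Cardiomyocyte-like (CM-like) cells, named from 8 CM markers, numbered 499, 1104 and 542. They came mostly from a different cluster on each day, and at D21 from clusters 5 (487 cells) and 17 (50 cells, median depth 8172 UMIs), with 5 cells of a D14 cluster. The members and the other chamber and conduction genes were left out of the clustering. All 8 CM markers had a UMI in the CM-like cells of each day, at a summed level of 4010, 13243 and 38143 CPM (UMIs of a gene scaled to a common total of all UMIs of the group). At D21, the hepatic marker list, with a UMI of 8 of 8 genes, summed to 3418 CPM in CM-like cells, against 28.7 CPM at D8 and 131 CPM at D14, and the fibroblast list (8 of 8) to 298 CPM. The hepatic level was uneven between clusters, and cluster 17 had 29941 CPM of hepatic and 28228 CPM of CM markers, against 1499 and 39176 CPM in cluster 5. The part of RNA from other cells in the D21 values was not tested. An unnamed cluster of 57 cells (2.93% of D21 cells), led by MYL2 and ANK2, had a UMI of all 8 CM markers, at a summed 19474 CPM. None of the 8 was 2-fold over the rest of the D21 cells, as the naming required, so the cluster was left out of the class. The largest unnamed clusters were cluster 0, with 40.3% of D8 cells, and cluster 2, with 28.5% of D14 cells.

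Within CM-like cells, the make-up of the Iroquois pair and of the HEY pair turned over between D14 and D21. IRX3 had 136 CPM (exact Poisson 95% interval 128 to 144), 317 CPM (308 to 327) and 39.9 CPM (35.5 to 44.8) on D8, D14 and D21 in turn, the order kept for all such series of values. IRX4 was at 0.859 CPM (0.345 to 1.77, from 7 UMIs), 3.14 CPM (2.30 to 4.19) and 93.3 CPM (86.4 to 101). IRX3 was therefore highest at D14 and IRX4 at D21, and neither gene had overlapping intervals between neighbouring days. From D14 to D21, the log2 ratio was -2.99 for IRX3 (-3.17 to -2.82) and 4.86 for IRX4 (4.46 to 5.36). Intervals here cover counting error only, since molecules of 1 library are not independent cultures.

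Levels of different genes depend on how well each is captured, so each pair is compared only by how its make-up moved. IRX4 made up 0.627% of the UMIs of IRX3 and IRX4 in D8 CM-like cells (Clopper-Pearson 95% interval 0.252% to 1.29%), 0.979% on D14 (0.718% to 1.3%) and 70.0% on D21 (67.0% to 72.9%). The IRX4 share was also higher at D21 in other classes. From D14 to D21 the IRX4 share went from 0 of 366 UMIs to 24.2% in fibroblast-like cells and from 0.216% to 46.3% in dividing cells. In endothelial-like cells it went from 0 of 12 UMIs to 4 of 7. At D21, IRX4 stood at 5.12% of its CM-like level in fibroblast-like cells, where the 8 CM markers summed to 5.33% of theirs. In endothelial-like cells the values were 7.53% and 6.13%. In dividing cells the CM markers summed to 6225 CPM, against 38143 CPM in CM-like cells. The part of CM RNA in the IRX4 values of these classes was not tested. Among the other Iroquois genes, IRX1 and IRX2 lie in one genomic cluster with IRX4, and IRX5 lies beside IRX3. In CM-like cells, IRX1 went from 25.1 to 2.46 CPM between D14 and D21, IRX2 from 60.4 to 16.5 CPM, and IRX5 from 44.5 to 4.24 CPM. IRX1, IRX2 and IRX5 were thus each more than 2-fold lower at D21, in the direction of IRX3 and not of IRX4.

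Among the Notch targets, HEY1 had 42.3 CPM (38.0 to 47.0), 22.2 CPM (19.8 to 24.7) and 9.16 CPM (7.10 to 11.6) in CM-like cells. HEY2 had 5.28 CPM (3.82 to 7.11), 7.64 CPM (6.29 to 9.19) and 84.5 CPM (78.0 to 91.4). HEY1 was thus lower on each later day, while the HEY2 intervals of D8 and D14 overlapped and D21 stood above both. The D8 to D14 step of HEY1 turned with how CMs were chosen, from a log2 ratio of -0.93 to 0.29 with a gate in place of clusters (5 or more of the 8 CM markers detected once the cell was thinned to 4000 UMIs). From D14 to D21, HEY2 had a log2 ratio of 3.46 (3.17 to 3.77). HEY1 had one of -1.26 (-1.68 to -0.89), which was within 2-fold with finer clusters (-0.67), with the CM marker gate (-0.71) and with median-of-ratios scaling (-0.99). Without cluster 17 it was -1.46. HEY2 made up 11.1% (8.13% to 14.6%), 25.6% (21.6% to 30.0%) and 90.2% (87.7% to 92.3%) of the UMIs of the HEY pair. HES1, a related Notch target, went from 206 to 24.1 CPM between D14 and D21, in the direction of HEY1.

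**Figure D1:**
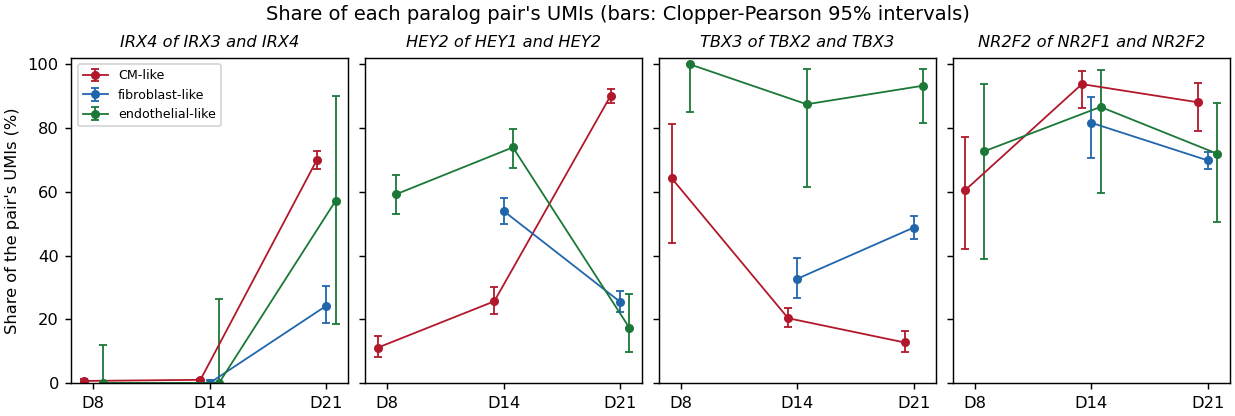
Share of each paralog pair's UMIs (%) held by the named gene, by day, in CM-like, fibroblast-like and endothelial-like cells, with Clopper-Pearson 95% intervals and lines joining the days. In CM-like cells the IRX4 share goes from 0.979% at D14 to 70.0% at D21 and the HEY2 share from 25.6% to 90.2%, while the HEY2 share of the other 2 classes is lower at D21 than at D14. The IRX4 share is higher at D21 in those 2 classes too, at 24.2% in fibroblast-like and 57.1% (of 7 UMIs) in endothelial-like cells. The part of CM RNA in those 2 values was not tested.

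IRX4 and HEY2 were the members that gained most between D14 and D21, so the 250 bases before their RefSeq start sites (build GRCh38.p14) are shown, with any searched motif in capitals. RefSeq promoter windows were searched for 4 of the 8 members: IRX4, HEY2, NR2F1 and NR2F2. HEY1 was set aside before the search, and no usable window was found for IRX3, TBX2 or TBX3. For IRX4, the start site farthest upstream of 3 was taken (minus strand, chr5:1887180-1887429); HEY2 has 1 (plus strand, chr6:125749382-125749631).
IRX4: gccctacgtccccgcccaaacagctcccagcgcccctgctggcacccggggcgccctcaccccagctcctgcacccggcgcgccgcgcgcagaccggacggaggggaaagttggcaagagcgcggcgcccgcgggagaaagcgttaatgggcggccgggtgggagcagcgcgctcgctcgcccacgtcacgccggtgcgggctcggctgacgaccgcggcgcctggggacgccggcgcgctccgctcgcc
HEY2: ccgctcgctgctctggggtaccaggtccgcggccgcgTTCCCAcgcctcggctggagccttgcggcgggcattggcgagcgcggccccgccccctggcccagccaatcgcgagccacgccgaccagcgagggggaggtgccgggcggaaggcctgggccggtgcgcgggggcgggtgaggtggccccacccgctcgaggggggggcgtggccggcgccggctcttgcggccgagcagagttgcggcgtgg
The searched motifs, on both strands, were the RBPJ core TGGGAA, the E-box CACGTG, the T-box GGTGTGA, the COUP-TF motif AGGTCA, the GATA motif AGATAA and the TATA motif TATAAA. The HEY2 stretch held the RBPJ core once, on the opposite strand, starting 213 bases before the start site, and none of the other motifs. The IRX4 stretch held none of them. RBPJ is the DNA-binding factor of the Notch pathway, and its core was in 20.8% of all 35116 windows, so the match is a description only. Both stretches were GC-rich, at 77.6% for IRX4 and 79.2% for HEY2, against a median of 58.0% over all windows.

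TBX2 and TBX3, the repressors of the canal and nodes, appeared in CM-like cells after D8. TBX2 had 1.23 CPM (0.588 to 2.26, from 10 UMIs), 39.6 CPM (36.4 to 42.9) and 49.8 CPM (44.8 to 55.2). Its log2 ratio was 4.88 from D8 to D14 (4.12 to 6.08) and 0.33 from D14 to D21 (0.14 to 0.52), so the gain lay in the first interval. TBX3 had 2.21 CPM (1.31 to 3.49), 10.1 CPM (8.53 to 11.9) and 7.25 CPM (5.43 to 9.48), and its intervals of D14 and D21 overlapped. The atrial receptors were low throughout. NR2F1 had 1.60 CPM (0.849 to 2.73), 0.341 CPM (0.111 to 0.796) and 1.37 CPM (0.656 to 2.51), from 13, 5 and 10 UMIs. NR2F2 had 2.45 CPM (1.5 to 3.79), 5.18 CPM (4.08 to 6.49) and 10.1 CPM (7.95 to 12.7), higher on each later day without overlap. Its step from D14 to D21 was a log2 ratio of 0.97 (0.48 to 1.45). This step passed 2-fold with coarser clusters (1.77), the marker gate (2.59) or the unnamed MYL2 cluster added (1.69). NR2F2 was at 59.9 CPM in that cluster. At D21, the fibroblast marker list summed to 298 CPM in CM-like and 5101 CPM in fibroblast-like cells. NR2F1 and NR2F2 stood in fibroblast-like cells at 2102% and 659% of their CM-like levels. The part of fibroblast RNA in the D21 CM-like levels was not tested.

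Across the comparison of D14 with D8 in CM-like cells, 3 members were more than 2-fold higher (IRX3, TBX2, TBX3) and none lower, among the 4 at 10 CPM or more on either day. The other 4 (IRX4, HEY2, NR2F1 and NR2F2) were below that level on both days. Over all 9078 genes measured in the same way, 10.5% were higher and 2.34% lower. From D14 to D21, 2 members were higher (IRX4, HEY2) and 2 lower (IRX3, HEY1) among 7 measured, with NR2F1 below the limit. Over 9140 genes, 5.07% were higher and 14.9% lower (463 and 1365 genes), with a median log2 ratio of -0.17. TMM scaling gave 713 and 971 genes, and 3 members higher, NR2F2 being the added one. TBX2 and TBX3 passed the limit only through D14, HEY1 in the second comparison only through D14, and IRX4 and HEY2 only through D21, so they had to differ and these counts support nothing further. The 2 comparisons share the D14 cells.

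**Figure D2:**
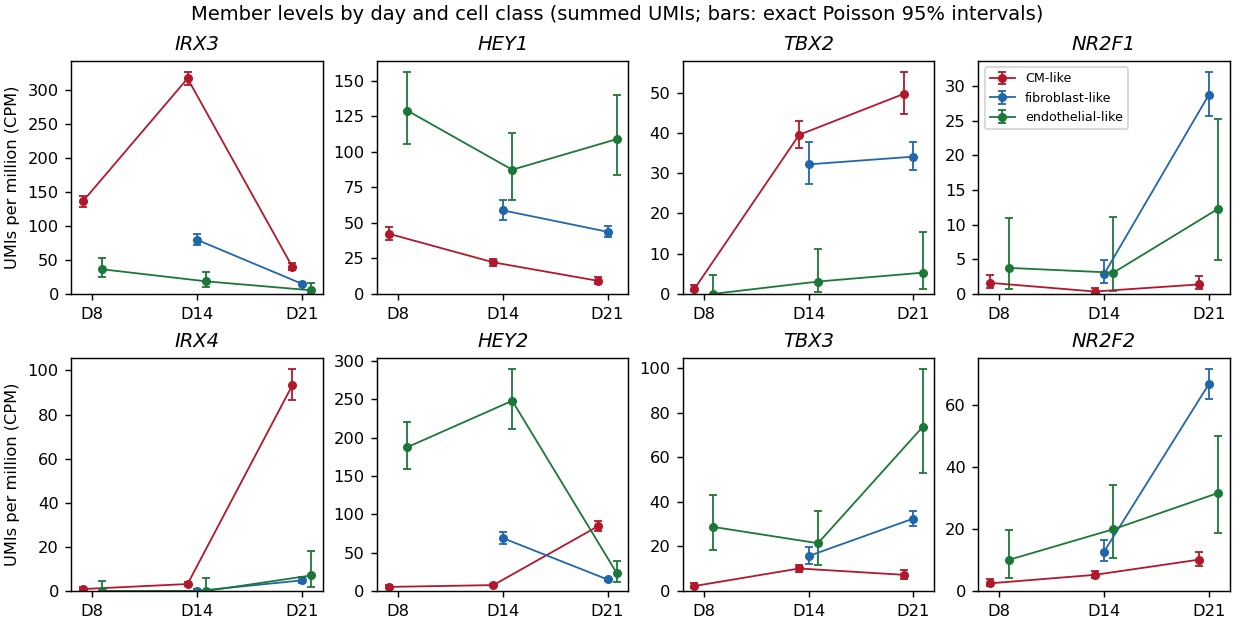
Level of each member (CPM, linear axis from 0, own scale in each panel) by day in CM-like, fibroblast-like and endothelial-like cells, with exact Poisson 95% intervals. In CM-like cells IRX3 peaks at 317 CPM at D14, IRX4 and HEY2 reach 93.3 and 84.5 CPM at D21, and NR2F1 and NR2F2 reach their highest values in fibroblast-like cells at D21.

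The other genes of chamber and conduction patterning, a list of 38, gave the setting of these changes in CM-like cells. From D8 to D14, 12 of the 24 measured were more than 2-fold higher and 0 lower, with a median log2 ratio of 1.10. Over all genes, 10.5% were higher and 2.34% lower, with a median of 0.05. From D14 to D21, 8 were higher and 9 lower of 26 measured, with a median of 0.03. Over all genes, 5.07% were higher and 14.9% lower, with a median of -0.17. All 3 ventricular genes were higher at D21. MYL2, the ventricular regulatory light chain, went from 3.55 to 547 CPM, and MYH7, the slow myosin heavy chain, from 27.2 to 639 CPM. Of 4 measured atrial genes, 3 were higher and 1 lower. NPPA, the atrial natriuretic peptide, went from 169 to 357 CPM, while SLN, the atrial calcium pump regulator sarcolipin, went from 151 to 0.684 CPM. Of 3 measured nodal genes, 2 were lower, with ISL1 at 80.1 and 6.02 CPM and BMP2 at 229.6 and 30.6 CPM, and HCN4, the pacemaker channel, was at 37.2 and 39.4 CPM. Of 6 measured trabecular and conduction genes, 1 was higher, 2 lower and 3 within 2-fold. ERBB4, a neuregulin receptor, went from 16.2 to 32.8 CPM, and CDKN1C, a cell cycle inhibitor, from 127 to 57.4 CPM. Among the partner factors, 1 of 5 measured, TBX5, was higher, at 8.87 and 29.9 CPM. The other 4 (NKX2-5, GATA4, HAND1, HAND2) were within 2-fold. MYL2 and TBX5 passed the limit of 10 CPM only through D21, and so had to be higher. SLN and ISL1 passed it only through D14, and so had to be lower. Nothing further is read from the counts of this list. The ventricular and nodal shifts were not limited to CM-like cells. From D14 to D21 all 3 ventricular genes were also higher in fibroblast-like, endothelial-like and dividing cells. Their median log2 ratios there were 5.71, 3.66 and 4.84, against 4.55 in CM-like cells. The 2 nodal genes measured in fibroblast-like cells were lower, with a median of -2.86. The source of these shared shifts was not tested.

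Outside muscle, HEY2 moved the other way. In fibroblast-like cells HEY2 went from 69.0 CPM (61.6 to 77.0) on D14 to 14.9 CPM (12.8 to 17.4) on D21, a log2 ratio of -2.20 (-2.49 to -1.93). In endothelial-like cells (46, 54 and 37 cells) HEY2 had 188, 248 and 22.8 CPM, with a last log2 ratio of -3.34 (-4.38 to -2.63). Among the named classes, HEY2 was thus highest in endothelial-like cells on D8 and D14 and in CM-like cells on D21. HEY1 in these cells had 129, 87.3 and 109 CPM, with overlapping intervals between neighbouring days, and stood above its CM-like level each day. IRX3 was lower in fibroblast-like cells too, going from 79.7 to 14.9 CPM, a log2 ratio of -2.41 (-2.69 to -2.15).

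The COUP-TF genes and TBX3 were higher in fibroblast-like cells at D21 than at D14. NR2F1 went from 2.83 CPM (1.51 to 4.84) to 28.7 CPM (25.7 to 32.0), and NR2F2 from 12.6 CPM (9.59 to 16.3) to 66.7 CPM (62.0 to 71.6). TBX3 went from 15.7 CPM (12.3 to 19.7) to 32.5 CPM (29.3 to 36.0), while the TBX2 values, 32.2 and 34.1 CPM, had overlapping intervals. In this class 3 of 7 measured members were thus more than 2-fold higher and 2 lower, against 4.81% and 9.78% of 8861 genes. NR2F1 passed the limit of 10 CPM only through D21 and so had to be higher, and nothing further is read from the counts. Nearly all fibroblast-like cells of D14 were of cluster 9 (313 of 319) and those of D21 were of cluster 3, so different clusters gave the values of the 2 days. TBX3 had 28.8, 21.5 and 73.8 CPM in the endothelial-like class, the last from 42 UMIs. Across those cells from D14 to D21, 2 of 6 measured members were higher (TBX3, NR2F1) and 2 lower (HEY2, IRX3), against 16.8% and 13.5% of 8965 genes, and the NR2F1 and IRX3 intervals held no change. NR2F1 passed the limit only through D21 and IRX3 only through D14, so both had to differ. The highest TBX3 level of any group of 20 or more cells, 129 CPM (119 to 139), was in 207 D14 cells of an unnamed cluster with 6 of 8 foregut epithelium and 4 of 8 hepatic markers, where NR2F2 was at 114 CPM (104 to 124), also its highest.

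**Figure D3:**
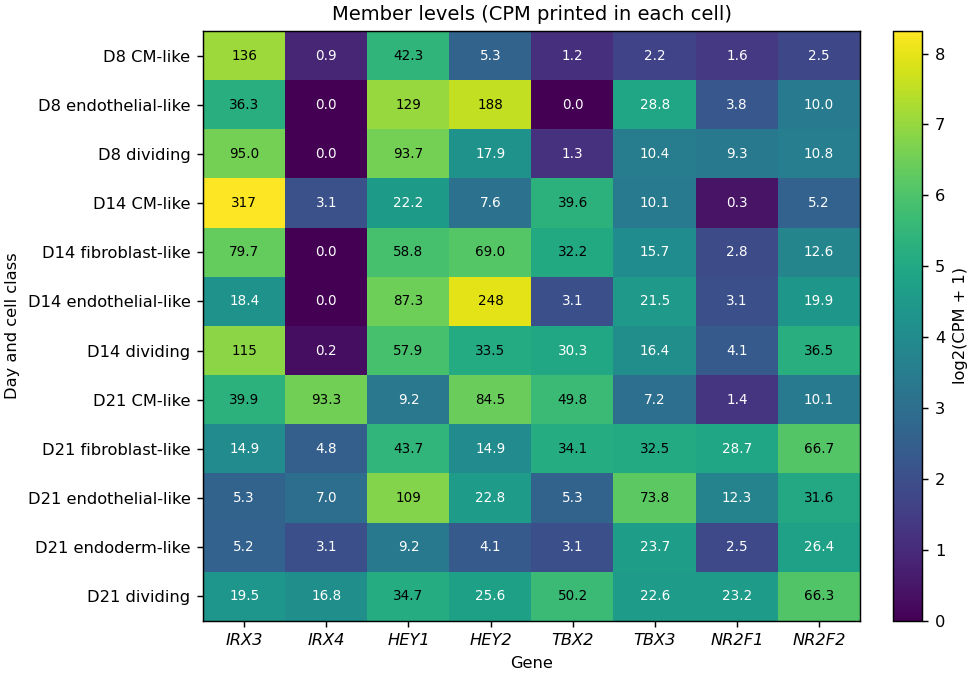
Level of the 8 members in the named cell classes of each day, with colour on a log2(CPM + 1) scale and the CPM printed in each cell. IRX4 is at 93.3 CPM in D21 CM-like cells and at most 16.8 CPM in the other named classes. Among the classes shown, IRX3 is highest in D14 CM-like cells. NR2F2 is at 66.7 CPM in D21 fibroblast-like and 10.1 CPM in D21 CM-like cells. Unnamed clusters are not shown. Of these, cluster 2 held 2863 of the 9448 IRX3 and IRX4 UMIs of D14, against 4699 in CM-like cells.

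By level at D21, the named classes had an order for each gene. IRX4 was highest in CM-like cells, then in dividing cells (16.8 CPM), endothelial-like (7.03 CPM), fibroblast-like (4.78 CPM) and endoderm-like cells (3.06 CPM), and after CM-like cells each class overlapped with its neighbour. HEY2 was highest in CM-like cells, then in dividing (25.6 CPM), endothelial-like and fibroblast-like cells, where neighbours overlapped, and last in endoderm-like cells (4.13 CPM), apart from the rest. TBX2 was at 50.2 CPM in dividing and 49.8 CPM in CM-like cells, with overlapping intervals, then 34.1 CPM in fibroblast-like cells. NR2F2 was at 66.7 CPM in fibroblast-like and 66.3 CPM in dividing cells, which overlapped, above endothelial-like (31.6 CPM) and endoderm-like cells (26.4 CPM), which overlapped too, and CM-like cells. The unnamed MYL2 cluster had 41.4 CPM of IRX4 and 52.0 CPM of HEY2.

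CM marker RNA found in other classes gave a scale for these values, and its source was not tested. The 8 CM markers summed in D21 fibroblast-like cells to 5.33% of their CM-like level, and in endoderm-like cells to 3.77%. IRX4 stood at 5.12% of its CM-like level in fibroblast-like cells (3.81% to 6.76%) and at 3.28% in endoderm-like cells (2.07% to 4.97%), so both intervals held the share of the CM markers. HEY2 stood at 17.7% in fibroblast-like cells (14.8% to 21.0%) and at 4.88% in endoderm-like cells (3.29% to 7.0%). TBX2 stood at 68.6% in fibroblast-like cells (59.3% to 79.4%), and IRX3 at 37.4% (30.8% to 45.4%), above the CM markers. In endothelial-like cells IRX4 stood at 7.53% (2.05% to 19.4%), where the CM markers stood at 6.13%.

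Detection in single cells gave the same division. Each cell was thinned at random to 4000 UMIs, which left out none of the CM-like or endoderm-like cells, and endoderm-like cells (306 cells, median depth 21930 UMIs against 12766 UMIs in CM-like cells) served as the class expected to lack muscle genes. IRX4 had a UMI in 27.9% of the 542 D21 CM-like cells (24.1% to 31.8%) and 1.63% of endoderm-like cells (0.533% to 3.77%). TBX2 had one in 19.4% (16.1% to 23.0%) and 0.980% (0.203% to 2.84%), and IRX3 in 12.9% (10.2% to 16%) and 1.96% (0.723% to 4.22%). HEY2 had one in 25.3% (21.7% to 29.2%) and 0.654% (0.0793% to 2.34%). Without thinning these 4 genes were detected in 61.8%, 43.9%, 35.1% and 51.3% of CM-like cells. HEY1 (3.51% and 3.59%), TBX3 (3.32% and 7.84%), NR2F1 (1.11% and 0.654%) and NR2F2 (3.14% and 6.54%) had low shares in both classes. Endoderm-like cells hold TBX3 at 327% and NR2F2 at 260% of their summed CM-like level, HEY1 at 100.3% and NR2F1 at 185%, so they are no background class for these 4 genes, and nothing is read from their shares.

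**Figure D4:**
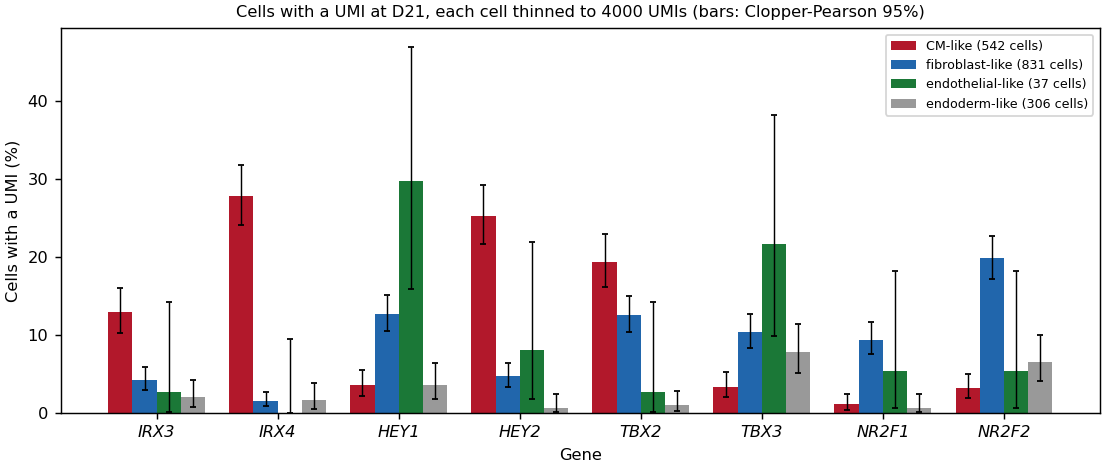
Share of D21 cells with a UMI of each member (%), after thinning each cell to 4000 UMIs, in CM-like (542), fibroblast-like (831), endothelial-like (37) and endoderm-like (306) cells, with Clopper-Pearson 95% intervals. IRX3, IRX4, HEY2 and TBX2 are above their endoderm-like share in CM-like cells, and NR2F1 and NR2F2 are highest in fibroblast-like cells.

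Within single D21 CM-like cells, IRX4 and HEY2 were found together more often than the product of their shares. After thinning, 192 of the 542 cells had a UMI of no member, 206 of 1, 117 of 2, 25 of 3 and 2 of 4. IRX4 was found in 151 cells and HEY2 in 137, and 59 had both, where the product of the shares gives 38.2 cells. HEY2 was found in 39.1% of the cells with IRX4 (31.2% to 47.3%) and in 19.9% of those without (16.1% to 24.3%). Random thinning moved this value. Over 20 further thinnings of the same cells, an alternative chosen after seeing the data, the means were 33.1% and 22.5%. The share was higher with IRX4 in 20 of 20. These draws reuse the same UMIs, so the tally measures thinning noise and is no repeat of the result. The intervals overlap in some single thinnings, with 31.6% (24.7% to 39.1%) against 22.9% (18.7% to 27.5%) for another seed. Without cluster 17, the means over 20 thinnings were 32.0% and 22.9%. Without thinning it was 60.3% (54.8% to 65.6%) against 36.7% (30.1% to 43.7%), where deeper cells have more of both genes.

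A second set of cells from the same library was not used above: the 1195 CM-like cells with 10% to 20% mitochondrial UMIs. This set was also added after seeing the data. Its cells were named CM-like in a separate clustering with a mitochondrial limit of 20%, so the class was defined anew. In this second set, HEY2 was found in 32.3% of the 288 cells with IRX4 (26.9% to 38.0%) and in 21.1% of those without (18.4% to 23.9%). Both sets thus had a higher HEY2 share beside IRX4, and the intervals in this set did not overlap. Its cells are from the same library, so they are no replicate. In the first set of 542 cells, TBX2 did not differ beyond its intervals. It was found in 21.9% of cells with IRX4 (15.5% to 29.3%) and 18.4% of those without (14.7% to 22.6%), and in 17.5% and 20% of cells with and without HEY2. IRX3 and IRX4 were found together in 17 cells, where the product gives 19.5, a difference too small to be read at this depth. HEY1 and HEY2 shared 4 cells, where the product gives 4.8, but few cells held HEY1 and the draw mattered. Over 20 thinnings they shared a mean of 3.25 cells, where the product gives 5.15, and the HEY2 share was higher beside HEY1 in 2 of 20. Another seed gave 0 of 25 cells with HEY1 (up to 13.7%) against 26.9% of those without (23.1% to 30.9%), and without thinning 23 cells held both, where the product gives 31.3. NR2F2, found in 17 cells, shared 5 with HEY2 (product 4.30), 2 with IRX4 (product 4.74) and 0 with HEY1 (product 0.596). These counts are too small to be read. Without thinning NR2F2 shared 16 cells with HEY2 (product 23.6), 19 with IRX4 (product 28.4) and 13 with HEY1 (product 5.18). In the second set, TBX2 was found in 20.1% and 20.3% of cells with and without IRX4, IRX3 and IRX4 shared 52 cells (product 48.4), and HEY1 and HEY2 shared 6 (product 7.37).

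The same cells were split by a member's UMI and read for other chamber genes. NPPA UMIs sat in few cells, so the share of cells with 5 or more of the 4000 UMIs is given. It was 0.662% of the 151 cells with IRX4 (0.0168% to 3.63%) and 5.63% of those without (3.56% to 8.40%). It was 0 of the 137 cells with HEY2, whose interval reaches 2.66%, and 5.68% of those without (3.63% to 8.40%). It was 23.5% of the 17 cells with NR2F2 (6.81% to 49.9%) and 3.62% of those without (2.19% to 5.59%). The NR2F2 contrast varied widely in size with the processing. Over the alternatives run, the share ranged from 5.19% to 69.2% with NR2F2 and from 2.39% to 9.07% without. NPPA-rich cells thus carried NR2F2 more often, and IRX4 and HEY2 less often, although the IRX4 intervals touched. The cells with NR2F2 did not themselves differ in HEY2 beyond the intervals. HEY2 was found in 29.4% of them (10.3% to 56.0%) and in 25.1% of the cells without NR2F2 (21.5% to 29.1%). The threshold of 5 was chosen after the values were seen, and at 1 or more NPPA UMIs the ratios between the shares were smaller. Over 20 thinnings, the mean shares were then 20.1% with and 25.1% without IRX4, 16% and 26.2% for HEY2, and 50.6% and 22.7% for NR2F2. In the cells with 10% to 20% mitochondrial UMIs, the share was 37.0% of 27 cells with NR2F2 (19.4% to 57.6%) against 2.91% (2.02% to 4.04%), and 0.704% of 284 cells with HEY2 (0.0854% to 2.52%) against 4.61% (3.34% to 6.18%). With IRX4 it was 1.74% (0.566% to 4.00%) against 4.30% (3.08% to 5.83%), and these intervals overlapped.

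BMP2 and MYL2 were chosen for this split after their values were seen, and MYH7 and TBX5 were split in the same way. BMP2, a signal of the atrioventricular canal, followed NPPA. It was found in 2.65% of cells with IRX4 (0.726% to 6.64%) and 10.2% of those without (7.41% to 13.7%), and in 2.19% of cells with HEY2 (0.454% to 6.27%) and 10.1% of those without (7.36% to 13.5%). With NR2F2 it was found in 23.5% (6.81% to 49.9%) against 7.62% (5.50% to 10.2%), which overlapped, and in the second set in 40.7% (22.4% to 61.2%) against 9.85% (8.20% to 11.7%), which did not. MYL2 was found in 54.3% of cells with IRX4 (46.0% to 62.4%) and 42.2% of those without (37.3% to 47.3%). With NR2F2 it was found in 29.4% (10.3% to 56.0%) and 46.1% (41.8% to 50.5%), and in the second set in 14.8% (4.19% to 33.7%) and 34.7% (31.9% to 37.5%). All of these MYL2 intervals overlapped. With HEY2 it was found in 53.3% (44.6% to 61.9%) against 43.0% (38.1% to 47.9%), and in the second set in 41.9% (36.1% to 47.9%) against 31.8% (28.8% to 35.0%), which did not overlap.

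Marker RNA of other cells was read in the same split. Cells with NR2F2 had 2912 CPM of hepatic and 368 CPM of fibroblast markers, against 4267 and 335 CPM in cells without, so neither list was far higher beside NR2F2. Cells with HEY1 (19 cells) had 7776 and 816 CPM, against 4095 and 319 CPM. The 6 cells with NR2F1 had 18417 CPM of hepatic markers against 4065 CPM. The part of this RNA in the HEY1 and NR2F1 detections was not tested.

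**Figure D5:**
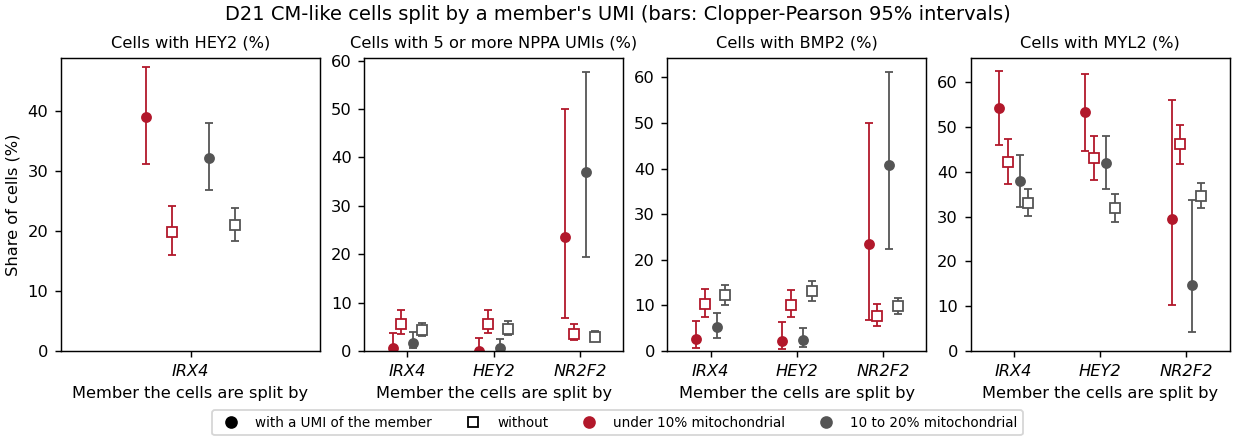
Share of D21 CM-like cells (%) with HEY2, with 5 or more NPPA UMIs, with BMP2 and with MYL2, split by a UMI of IRX4, HEY2 or NR2F2 after thinning to 4000 UMIs. Filled circles are cells with the member and open squares cells without, red for cells under 10% and grey for cells with 10% to 20% mitochondrial UMIs, and bars are Clopper-Pearson 95% intervals. NPPA-rich cells make up 23.5% and 37.0% of cells with NR2F2 in the 2 sets and at most 1.74% of cells with IRX4 or HEY2.

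Likeness of pattern was measured as Pearson's r of log2(CPM + 10) over 22 day-by-class groups of at least 20 cells, among 9483 genes, as a description with groups of 1 library sharing depth and background. IRX4 was most like LAMA2, a laminin chain of muscle basement membrane (r = 0.98), S100A8 (0.97) and SH3BGR (0.97). IRX3 was most like HOXB-AS1 (0.90), GADD45G (0.89) and GPC2 (0.87), and TBX2 like RP11-332H18.4 (0.95), PLXNA4 (0.92) and MIR145 (0.91). NR2F1 was most like FBN1, the microfibril protein fibrillin (0.90), CYBRD1 (0.87) and PIEZO2 (0.85), and HEY1 like GTF2F1 (0.84), TLE3 (0.83) and BAIAP2 (0.82). The closest genes were less close for HEY2 (RRAS, 0.82, CREB5, 0.81, and XPNPEP1, 0.79), TBX3 (C12orf49, 0.82, KCNK1, 0.81, and RAPGEF5, 0.80) and NR2F2 (SPATS2L, 0.76, HNMT, 0.75, and SEMA3D, 0.73). Between paralogs r was -0.25 for IRX3 and IRX4, 0.23 for HEY1 and HEY2, -0.30 for TBX2 and TBX3, and 0.55 for NR2F1 and NR2F2, so only the COUP-TF genes had a clearly positive value.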

How the data were processed

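Libraries were 10x Chromium 3′ v2, and the submitters' processing notes name Cell Ranger, Seurat 3.2.1 and the genome build hg19. The authors deposited unnormalized UMI counts as 1 table with 17327 barcodes (3563, 4615 and 9149 for D8, D14 and D21), before filtering. The day was read from the barcode suffix. The study's filter was applied (over 2000 and under 7500 genes, under 10% mitochondrial UMIs). Kept cells of all days were normalized, clustered on 2000 variable genes, less the 30 of them that were members or other chamber and conduction genes, with 20 principal components at resolution 0.8, and named from marker lists with Seurat 5.3.0 (R 4.3.3): at least 3 markers 2-fold over the rest of the day, leading the next list by 2. Doublets were not removed. UMIs were summed per day and class. Ratios had 1 count added, and genes under 10 CPM on both days were not compared. Python 3.11.15 with scipy 1.17.1 gave exact 95% intervals, which cover counting error only, since cells of 1 library are not replicates. The ratio and co-detection scripts were tested on simulated data. The genes named were the 8 members, a list of 38 other chamber and conduction genes, and the 3 genes most like each member. The members and lists were chosen with earlier results of these data known. The threshold of 5 NPPA UMIs and the genes NPPA, BMP2 and MYL2 in the split of cells were chosen after their values were seen. Alternatives were other mitochondrial limits, resolutions, variable genes, scalings (edgeR 4.0.16 TMM factors, median of ratios), low-level limits, folds, thinnings and class definitions. 1 result of the list of 38 is not reported here. The cells were thinned anew for each set of cells.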

Additional observations from a re-analysis of the deposited data

Results flagged for a closer look

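HEY2 moved in opposite directions between D14 and D21 in different cell classes. Its log2 ratio was 3.46 in CM-like, -2.2 in fibroblast-like and -3.34 in endothelial-like cells. With 1 library per day the difference between classes was not tested, and the endothelial-like value rests on 54 and 37 cells.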

How the results depend on the processing

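The D21 over D14 log2 ratios ranged from -3.23 to -2.72 for IRX3, from 4.23 to 5.13 for IRX4 and from 2.86 to 3.73 for HEY2 over the alternatives run, and kept their direction. NR2F1 from D14 over D8 reversed, from -2.07 to 0.044, with the marker gate. Genes higher on D14 than D8 went from 954 to 2915 without a low-level limit and 1849 at 1.5-fold, and genes lower from 212 to 1774 and 841. Genes higher on D21 than D14 went from 463 to 2143 and 1034, to 713 with TMM and to 786 with median-of-ratios scaling, and genes lower from 1365 to 4166 without the limit and 2437 at 1.5-fold. Median-of-ratios scaling shifted D14 by 0.12 and D21 by -0.15 on the log2 scale, and TMM by 0.10 and -0.13. Members higher on D14 went from 3 to 1 with a mitochondrial limit of 5% and 5 without the low-level limit. Members lower went from 0 to 1 with resolution 1.2, mitochondrial limits of 5% or 20%, median-of-ratios scaling, no low-level limit or 1.5-fold. Members lower on D21 went from 2 to 1 with resolution 1.2, the marker gate or median-of-ratios scaling. Other listed genes lower on D14 went from 0 to 2 with resolution 1.2 or no limit, and to 1 with the mitochondrial limits, median-of-ratios scaling or 1.5-fold. Without the limit, 13 were higher and 14 lower on D21. HEY2 among cells with IRX4 was 29.7% with resolution 0.4 and 60.3% without thinning, and among cells without IRX4 36.7% without thinning and 25.7% without the deepest cells. Sets of other cells were thinned anew, so their values differ by the draw as well as by the cells. The cause of these shifts was not tested beyond what each setting itself changes. The mitochondrial limit of 5% left 1 CM-like cell on D21 and gave no D21 value. No paired analysis was possible because each day had 1 library. Leaving out a replicate was not possible either. Doublets were kept. Intervals cover counting error only.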
